A study of Homo sapiens with 4 samples.

Results

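The S100 genes encode small calcium-binding proteins, and 10 of them are described here: S100A1, S100A2, S100A3, S100A4, S100A6, S100A10, S100A11, S100A13, S100A14 and S100A16, of 61806 genes in the deposited table. They were chosen by symbol, with the fall of S100A2 after melatonin in both cell lines as the reason for looking at the family. The melatonin values of these genes are therefore a description, and nothing was tested with them. RNA was measured by poly(A)-selected sequencing in JJ012, a human chondrosarcoma line, and 143B, a human osteosarcoma line. Both were kept detached, in suspension, either untreated or with 1 mM melatonin for 72 h. Each of the 4 conditions had 1 library, so there was no replicate check and no test of the conditions, and a line stands for itself and not for its tumour type. The columns of the table carry the name of the line with or without a suffix T, and T was read as melatonin-treated, which no label spells out.

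S100 proteins carry EF-hand calcium-binding loops and mostly work as dimers. Calcium opens a surface through which they bind target proteins, among them annexins and cytoskeletal proteins, and S100A10 is the exception that holds its open form without calcium. Some members are also released from cells and can signal through the receptor RAGE (AGER) or through TLR4. Most of the family lies in a cluster on the long arm of chromosome 1, and members are known in tumours for roles in motility and invasion, S100A4 being the best studied.

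All 10 genes lay on chromosome 1 of hg38, 9 of them on the minus strand and S100A1 on the plus strand. S100A10 (ENSG00000197747, 151982915 to 151993859) and S100A11 (ENSG00000163191, 152032506 to 152047907) stood apart from the rest. The other 8 followed after a gap of 1.49 Mb and filled 97.4 kb, in the order S100A6 (ENSG00000197956, 153534599 to 153536244), S100A4 (ENSG00000196154, 153543613 to 153550136), S100A3 (ENSG00000188015, 153547329 to 153549258), S100A2 (ENSG00000196754, 153561108 to 153567890), S100A16 (ENSG00000188643, 153606886 to 153613145), S100A14 (ENSG00000189334, 153614255 to 153616986), S100A13 (ENSG00000189171, 153618787 to 153631360) and S100A1 (ENSG00000160678, 153627926 to 153632039). The span of S100A3 lay inside that of S100A4. S100A1 and S100A13 overlap on opposite strands, and the strand setting of the counting was not given in the sources used here. Of the exonic bases of S100A1, 18.3% lay over exons of other genes on the opposite strand. For S100A13, 24.2% lay over exons of an overlapping gene of the same strand and 10.6% over those of S100A1. These are shares of bases and not of reads, so how far the values of this pair are affected is not known.

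S100A2, S100A3 and S100A4 were the members past the fold threshold in both lines. In 143B S100A3 and S100A4 passed the expression filter only through the control library. Stretches upstream of an annotated RefSeq start of each of these genes are shown because of their calls. Those of S100A2 and S100A4 lie upstream of an internal start, inside the span given above for the gene, and that of S100A3 lies before its own span and inside that of S100A4. They come from RefSeq (GRCh38.p14), run 5′ to 3′, leave out exonic bases, and carry in capitals the letters TGANTCA of an AP-1 site or GGGCGG of a GC box, searched on both strands.
S100A2, chr1:153565866-153566094, minus strand: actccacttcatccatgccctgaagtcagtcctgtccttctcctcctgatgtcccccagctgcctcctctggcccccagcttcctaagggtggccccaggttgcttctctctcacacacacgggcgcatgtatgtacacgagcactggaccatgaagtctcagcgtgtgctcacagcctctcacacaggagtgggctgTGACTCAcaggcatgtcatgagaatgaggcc
S100A3, chr1:153549373-153549508, minus strand: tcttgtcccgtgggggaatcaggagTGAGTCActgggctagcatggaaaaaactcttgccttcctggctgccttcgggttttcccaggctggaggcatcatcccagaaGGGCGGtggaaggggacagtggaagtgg
S100A4, chr1:153545886-153546056, minus strand: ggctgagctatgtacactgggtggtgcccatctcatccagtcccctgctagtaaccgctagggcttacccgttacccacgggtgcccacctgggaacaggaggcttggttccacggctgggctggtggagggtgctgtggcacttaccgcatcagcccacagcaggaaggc
Over windows of 250 bases upstream of the annotated starts, of which the 10 genes had 14, TGANTCA was present in 2, one each for S100A2 and S100A3. Of all 35116 RefSeq windows of this length 6.57% held it. TATAAA was present in 2 of the 14, in windows of S100A4 and S100A13, against 10.7% of all windows, and in S100A4 it fell outside the stretch printed above. GGGCGG was in 6 of the 14 (42.6% of all windows), CCAAT in 3 (32.0%), ACGTG in 1 (18.5%) and CANNTG, whose letters can overlap ACGTG, in 9 (61.8%). A match is a string of letters and was not tested as a binding site.

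The total was 15889564 to 19218343 counts per library, and 13198 to 14477 genes reached 1 FPKM, which are counts per kilobase of exon, scaled to the library total. A count of 0 allowed up to 0.156 to 0.189 CPM (counts scaled to the library total alone), from 3 counts. Intervals below are 95% intervals and cover counting error only. Of 8 chondrocyte markers, SOX9 and COL11A1 were above 1 FPKM in JJ012 and SOX9 in 143B, while COL2A1 had 0 counts in both JJ012 libraries. The summed FPKM of these markers was 39.7 in the JJ012 control and 9.98 with melatonin, and 16.4 and 12.6 in 143B. Of 8 osteoblast markers, 143B expressed RUNX2 and BGLAP, with a sum of 6.97 FPKM in the control and 5.07 with melatonin, while JJ012 expressed RUNX2, SPP1 and COL1A1 in the control, with sums of 94.7 and 68.2. Of 6 epithelial markers, KRT8 and KRT18 were above 1 FPKM in both lines, and EPCAM only in the 143B control (1.4). CDH1, KRT5 and KRT14 stayed below 1 FPKM in every library. The epithelial sums were 19.4 and 13.5 FPKM in JJ012 and 46.9 and 32.4 in 143B, and leukocyte markers summed to at most 5.24. The part of any of these in the S100 values was not tested, and in such bulk libraries fewer cells of a type and less RNA per cell cannot be told apart.

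**Figure D1:**
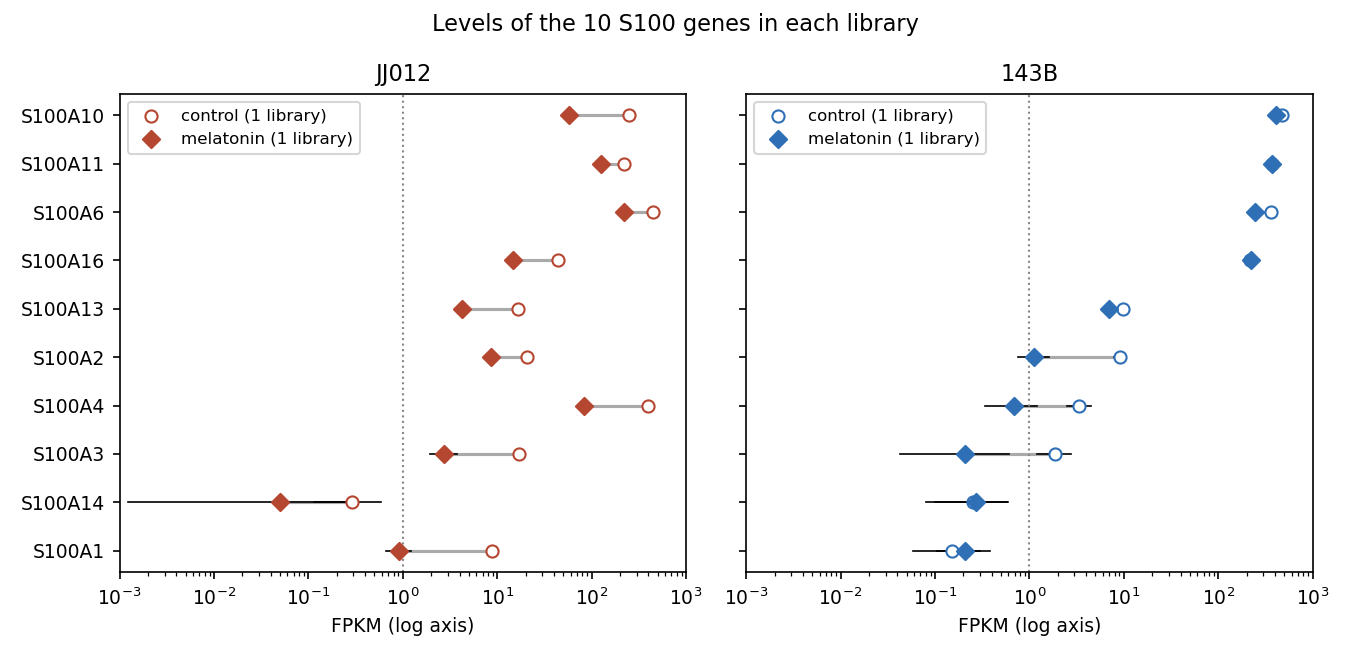
Level of each S100 gene in each of the 4 libraries, in FPKM on a log axis, with exact Poisson 95% intervals that cover counting error only. S100A4 was at 394.54 FPKM in the JJ012 control and 3.39 in the 143B control, while S100A6, S100A10 and S100A11 were high in both lines.

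In the untreated cells, S100 RNA took a similar share of the counts in both lines, with S100A6, S100A10 and S100A11 among the highest 4 genes in each and the proportions different. The members took 0.138% of all counts in the JJ012 control (0.137% to 0.140%) and 0.148% in the 143B control (0.147% to 0.150%). In JJ012 the FPKM ran in the order S100A6, S100A4, S100A10, S100A11, S100A16, S100A2, S100A3, S100A13, S100A1 and S100A14. Of these neighbours, S100A3 and S100A13 did not differ beyond counting error (ratio 1.02, 0.884 to 1.17). In 143B the order was S100A10, S100A11, S100A6, S100A16, S100A13, S100A2, S100A4, S100A3, S100A14 and S100A1, and the neighbours S100A11 and S100A6, S100A13 and S100A2, and S100A14 and S100A1 did not differ beyond it. The highest 4 genes made up 92.4% of the members' summed FPKM in JJ012 and 98.3% in 143B.

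The main contrast between the control libraries was S100A4. It had 7173 counts (394.54 FPKM) in JJ012 and 51 counts (3.39 FPKM) in 143B, a CPM ratio of 116 (88.3 to 156), and it took 27.9% of the members' FPKM in JJ012 against 0.234% in 143B. S100A1, best known from muscle, was 60.5 times as high in JJ012 by CPM (29.1 to 151), with 512 and 7 counts. S100A16, a widely expressed member, went the other way, with 44.51 FPKM in JJ012 and 217.81 in 143B and a CPM ratio of 0.204 (0.193 to 0.216). In fold changes of FPKM + 1 at an absolute log2 value of 0.58 or more, 5 of the 9 members that reached 1 FPKM were higher in JJ012 (S100A1, S100A2, S100A3, S100A4 and S100A13), 3 were lower (S100A10, S100A11 and S100A16) and S100A6 was neither. Of all genes tested in this comparison 41.3% were higher and 27.4% lower, with a median of 0.29. The call of S100A13 (0.70) was lost with the median gene set to 0 (0.42) and with TPM (0.37). With the running median over exonic length removed, 3 were higher and 4 lower: S100A13 (−0.10) and S100A2 (1.09, then 0.16) lost their calls and S100A6 (0.31, then −0.62) was lower. These are differences between 2 libraries of different lines, and the same control libraries also stand in the melatonin comparisons.

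With melatonin, all 9 members that reached 1 FPKM in a JJ012 library were lower past the threshold, and in 143B 3 of 8 were. The lower share over all genes tested was 18.6% in JJ012 (19.6% higher) and 6.65% in 143B (6.09% higher). Since the family was picked on these comparisons, nothing is read from its counts beside those shares. The median log2 fold change of the members was −1.76 in JJ012, where the median of all genes tested was 0.01, and −0.50 in 143B, where it was 0.03. S100A14, known from epithelia, stayed below 1 FPKM everywhere, with 7, 1, 5 and 6 counts in the JJ012 control, JJ012 with melatonin, the 143B control and 143B with melatonin.

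S100A2, a member mainly known from epithelia, had 612 counts (20.6 FPKM) in the JJ012 control and 213 counts (8.53 FPKM) with melatonin. The 143B libraries held 224 counts (9.12 FPKM) untreated and 30 counts (1.13 FPKM) treated. In each line the melatonin library was below its own control, and the FPKM intervals of the treated JJ012 library and the 143B control overlapped. Its log2 fold change was −1.18 in JJ012 against −2.25 in 143B, and its CPM were 2.41-fold lower (2.06 to 2.83) and 8.07-fold lower (5.49 to 12.2). The fall in 143B was deeper beyond counting error, the JJ012 ratio being 3.34 times the 143B ratio (2.19 to 5.23). Of the 10, S100A2 alone had such an interval wholly above 1. Those of S100A3 (1.44, 0.407 to 7.79) and S100A4 (1.06, 0.545 to 2.27) held 1. From the lowest log2 fold change, S100A2 ranked 12 of 14135 genes in 143B and 634 of 15794 in JJ012. The family was chosen for the fall of this gene, so its ranks are a description.

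S100A4, which binds non-muscle myosin and is tied to cell motility, had 7173 counts in the JJ012 control and 1278 with melatonin (394.54 and 83.68 FPKM). The 143B libraries held 51 and 11 counts (3.39 and 0.68 FPKM). The lines held this gene at levels so far apart that the melatonin-treated JJ012 library was still above the 143B control. It was 4.71-fold lower by CPM in JJ012 (4.44 to 5.01) and 5.01-fold lower in 143B (2.58 to 10.7), ratios that did not differ beyond counting error. Its share of the members' FPKM went from 27.9% to 16.1% in JJ012. S100A3, a cysteine-rich member of the hair follicle, had 276 and 37 counts in JJ012 (17.08 and 2.73 FPKM), 6.27-fold lower by CPM (4.44 to 9.09). There were 25 untreated and 3 treated counts in 143B, a CPM ratio of 0.111 (0.0215 to 0.364). S100A2, S100A3 and S100A4 were 3 of the 8 members tested in both lines. Over all genes 158 of 11822 (1.34%) were lower in both. S100A2 is among the 3 by the choice of the family, and in 143B S100A3 and S100A4 reached 1 FPKM only in the control. Nothing is therefore read from this count beside that share.

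**Figure D2:**
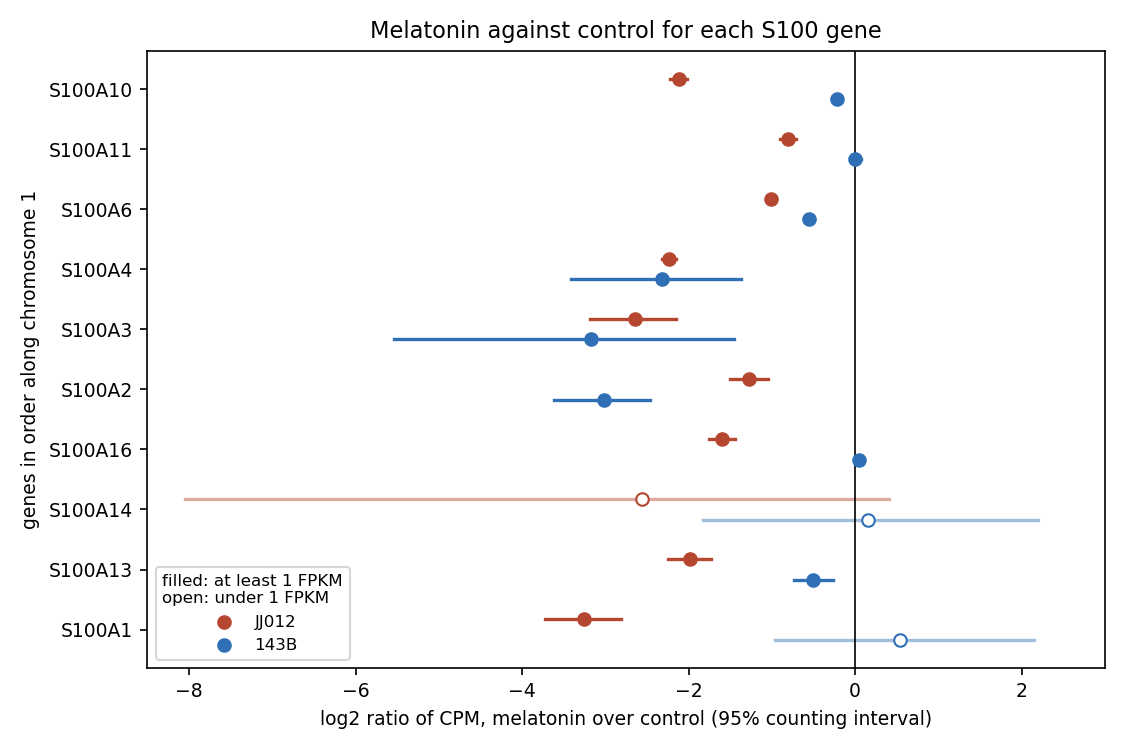
Ratio of melatonin to control CPM for each S100 gene in JJ012 and 143B, on a log axis, with exact 95% intervals that cover counting error only. The JJ012 intervals lie below 1 for 9 genes, while in 143B those of S100A1, S100A11, S100A14 and S100A16 hold 1. An interval can lie below 1 while the gene is short of the threshold, as for S100A10 in 143B. No share over all genes stands beside these intervals, so nothing is read from how many lie below 1.

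The abundant members that bind annexins were lower past the threshold in JJ012 and short of it in 143B. S100A10, which joins annexin A2 in a complex at the plasma membrane, had 4810 counts in the JJ012 control and 931 with melatonin (247.31 and 56.99 FPKM), 4.34-fold lower by CPM (4.04 to 4.66). The 143B values were 7686 and 7151 counts (477.98 and 411.67 FPKM), 1.16-fold lower (1.12 to 1.20) and short of the threshold. S100A11, a partner of annexin A1, had 2718 and 1307 counts in JJ012 (217.92 and 124.75 FPKM), 1.75-fold lower (1.63 to 1.87). Counts in 143B were 3813 and 4128, with a CPM ratio of 1.00 (0.959 to 1.05). S100A6, or calcyclin, was the most abundant member in both JJ012 libraries by FPKM, with 446.97 and 222.96, and 359.52 and 245.57 in 143B. It was 2.00-fold lower by CPM in JJ012 (1.93 to 2.09) and 1.46-fold lower in 143B (1.41 to 1.52), where its log2 fold change of −0.55 lay just short of the threshold. S100A11, at −0.80, was the JJ012 member nearest to it on the inside, and S100A3, at −1.25, that in 143B. The place of S100A3 depended on the 1 added to its low FPKM. With 0.1 added instead, S100A3 was at −2.67 in 143B and S100A4, at −2.16, was the nearest there.

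S100A1 had 512 counts in the JJ012 control and 45 with melatonin (8.79 and 0.92 FPKM), 9.56-fold lower by CPM (7.04 to 13.3), an interval that overlapped that of S100A3. Counts in 143B were 7 and 11, and no difference was detectable at this depth (ratio 1.45, 0.515 to 4.43). S100A13, which takes part in the release of FGF1 and interleukin 1 alpha without the classical secretory route, had 713 and 151 counts in JJ012 (16.74 and 4.22 FPKM), 3.97-fold lower (3.32 to 4.76). The 143B values were 349 and 266 counts (9.91 and 6.99 FPKM), 1.42-fold lower (1.20 to 1.67) and short of the threshold. S100A16 had 1455 and 404 counts in JJ012 (44.51 and 14.71 FPKM), 3.03-fold lower (2.71 to 3.39). The 143B values were 5887 and 6560 counts (217.81 and 224.68 FPKM), a CPM ratio of 1.03 (0.996 to 1.07).

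Set side by side, the JJ012 ratio was lower than the 143B ratio beyond counting error for 6 of the 10 genes. This comparison was made for the members only, so no share over all genes stands beside it and nothing is read from the count. Over all genes tested, 18.6% were lower past the threshold in JJ012 and 6.65% in 143B. The 143B ratio was 13.7 times the JJ012 ratio for S100A1 (4.61 to 44.0), 3.74 times for S100A10 (3.46 to 4.04), 3.12 times for S100A16 (2.78 to 3.51) and 2.80 times for S100A13 (2.19 to 3.57). The remaining pair was closer, at 1.75 for S100A11 (1.62 to 1.9) and 1.37 for S100A6 (1.29 to 1.45). The intervals of S100A3, S100A4 and S100A14 held 1. Summed over the members, the CPM were 1385 and 487 in JJ012, 2.84-fold lower with melatonin (2.77 to 2.92), and 1485 and 1297 in 143B, 1.15-fold lower (1.12 to 1.17). After melatonin the order in JJ012 was S100A6, S100A11, S100A4, S100A10, S100A16, S100A2, S100A13, S100A3, S100A1 and S100A14, each beyond counting error from the next. In 143B S100A10, S100A11, S100A6 and S100A16 led, as in its control, with 99.2% of the members' FPKM. Below them came S100A13, S100A2, S100A4, S100A14, S100A1 and S100A3, and from S100A2 downward no neighbours differed beyond counting error.

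**Figure D3:**
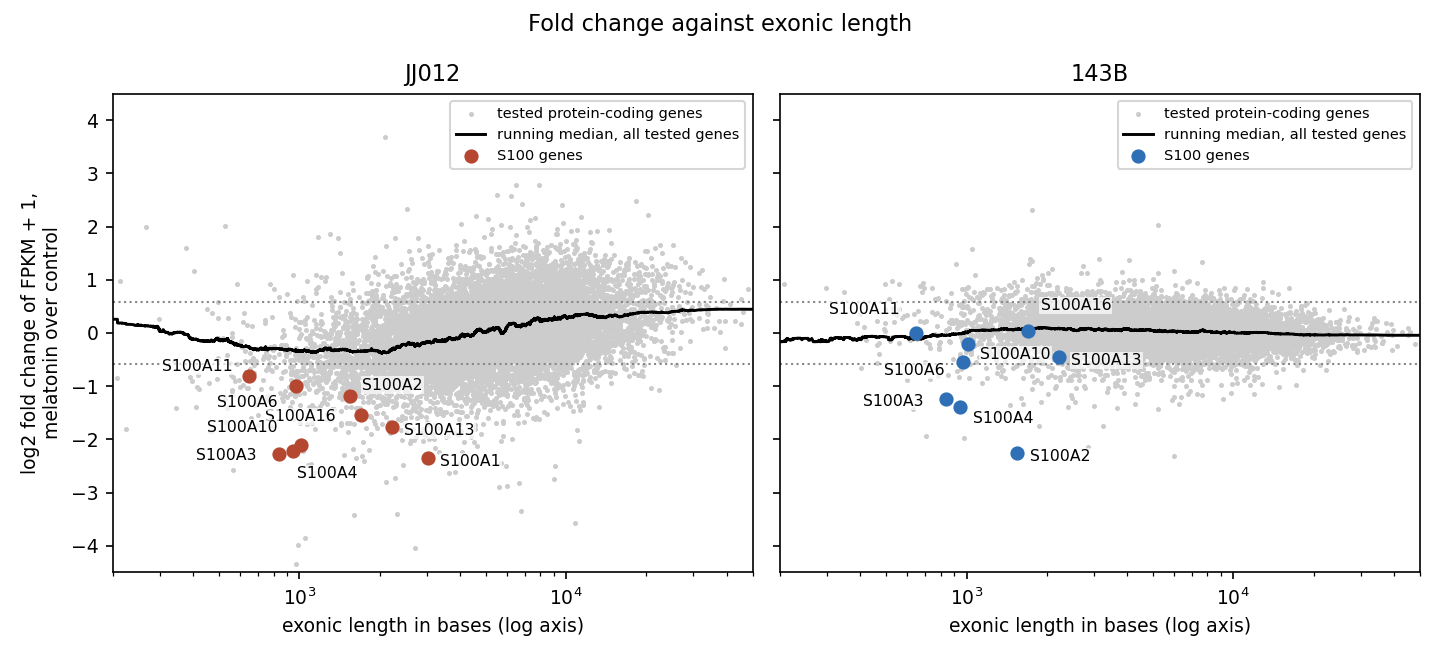
Log2 fold change of FPKM + 1 (melatonin over control) against exonic length in bases, on a log axis, for tested protein-coding genes (grey), the S100 genes (coloured) and the running median of all tested genes (line), with dotted lines at the threshold. In JJ012 the running median at the S100 genes lay between −0.34 and −0.16, and each of the 9 S100 genes tested there lay below it.

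The S100 genes are short, and in JJ012 fold changes moved with gene length. Their exonic lengths ran from 649 bases (S100A11) to 3030 bases (S100A1), with a median of 1144.5, while the median of the tested protein-coding genes was 5236.5 in JJ012 and 5353 in 143B. Of tested protein-coding genes 16.1% were lower in JJ012 and 2.6% in 143B. Among those no longer than 3030 bases, 33.4% were lower in JJ012 and 4.48% in 143B. Less the running median at their length, the JJ012 log2 fold changes were −2.19 for S100A1, −1.98 for S100A3, −1.89 for S100A4, −1.76 for S100A10, −1.44 for S100A13, −1.19 for S100A16, −0.84 for S100A2 and −0.67 for S100A6. S100A11, at −0.54, was then no longer past the threshold. In 143B S100A2 was at −2.31, S100A4 at −1.37 and S100A3 at −1.21. The part of RNA length in these values was not tested.

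Genes that S100 proteins bind or signal through, 27 in a list chosen with earlier results of these data known, are given as a description. In each line 19 of them were tested. In JJ012 3 were higher and 6 lower, with a median of −0.14, and in 143B 2 were higher and 1 lower, with a median of −0.07. Over all genes tested 19.6% were higher and 18.6% lower in JJ012, and 6.09% higher and 6.65% lower in 143B. ANXA2, the annexin that S100A10 joins, was at 143.47 FPKM in the JJ012 control and 55.56 with melatonin (log2 fold change −1.35), and at 112.06 and 112.1 in 143B. It thus lay in the same direction as S100A10 in JJ012 and at 0.00 in 143B. ANXA1, the partner of S100A11, was at 76.15 and 50.29 FPKM in JJ012 (−0.59) and at 20.83 and 16.25 in 143B (−0.34).

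MYH9, the heavy chain of the myosin that S100A4 binds, went against S100A4 in JJ012, from 54.51 to 133.71 FPKM (1.28), and was at 106.41 and 124.96 in 143B (0.23). AHNAK, a large scaffold that binds S100A10 with annexin A2, was also higher in JJ012, at 51.72 and 103.54 FPKM (0.99). ATP2A2, a calcium pump that S100A1 regulates, was at 11.66 and 18.88 (0.65). MYH9 and AHNAK have long exonic lengths of 17034 and 19466 bases, and less the running median over length they stood at 0.94 and 0.60. The other genes lower in JJ012 were ANXA6 (36.81 and 19.29 FPKM, −0.90), TLR4 (2.37 and 0.95, −0.79), AGER (4.11 and 2.03, −0.75) and PLAT (3.86 and 1.94, −0.73), the last a plasminogen activator. Less that running median, ANXA1, AGER and ATP2A2 were no longer past the threshold.

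**Figure D4:**
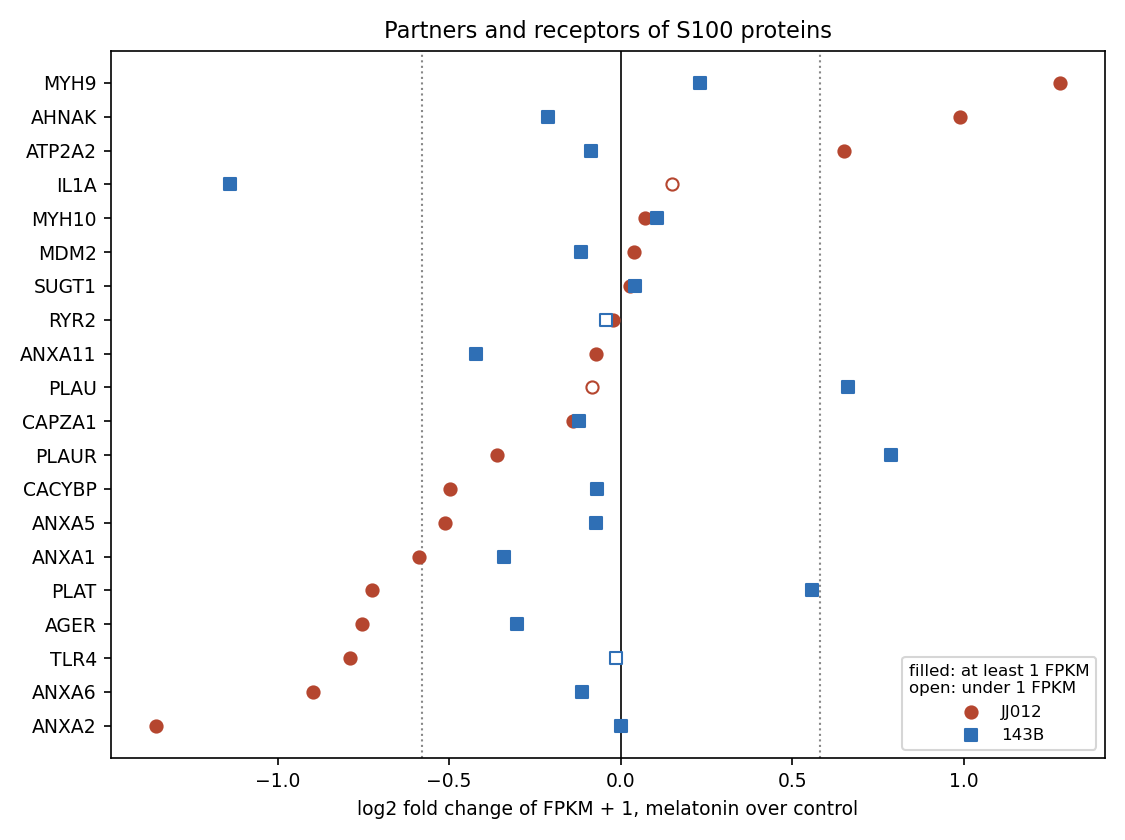
Log2 fold change of FPKM + 1 (melatonin over control) in JJ012 and 143B for genes of the list of S100 partners and receptors tested in at least 1 line, with open symbols where both libraries were under 1 FPKM and dotted lines at the threshold. MYH9 (1.28) and ANXA2 (−1.35) lie at opposite ends in JJ012, and IL1A (−1.14) is the lowest in 143B.

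The partner genes past the threshold in 143B were others. PLAUR, the urokinase receptor, was at 64.23 FPKM in the control and 111.55 with melatonin (0.79), and PLAU, urokinase, at 26.74 and 42.93 (0.66). IL1A, a cargo released together with S100A13, was at 32.95 and 14.41 FPKM (−1.14). AGER was at 3.49 and 2.64 FPKM there (−0.30). PLAT, lower in JJ012, went the other way in 143B, at 1.6 and 2.83 FPKM (0.56), just short of the threshold.

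Of the 11 other S100 genes in the table, 8 had under 10 counts in every library. S100A5, which lies in the same cluster, had 20 and 4 counts in JJ012, a CPM ratio of 0.238 (0.0592 to 0.711). S100P had 11 and 7 counts in 143B, and no difference was detectable (ratio 0.589, 0.194 to 1.66). None of the 7 fused S100 genes, the keratinisation genes with an S100 domain such as FLG, reached 1 FPKM. S100A11 has 8 processed pseudogenes in the table, and none took more than 3 counts in a library.

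Between the outermost members lie 81 other genes, mostly silent in these cells and with other S100 genes among them. In JJ012 4 were tested, of which 2 were lower and 0 higher, and in 143B 2, of which 1 was lower. Those lower in JJ012 were S100A5, given above, and ENSG00000238279. Every neighbour called lower, in either line, reached 1 FPKM only in the control library. Nothing is therefore read from these counts beside the share of all genes. Of all genes tested 18.6% were lower in JJ012 and 6.65% in 143B. The one past the threshold in both lines was ENSG00000238279, an RNA opposite S100A6 that shares 23 exonic bases with it, at 1.16 and 0.35 FPKM in JJ012 and 1.14 and 0.41 in 143B. Within 500 kb on either side of the members, a distance chosen after the data were seen, 5 of 24 tested genes were lower and 3 higher in JJ012 (20.8% lower, median −0.23), and 2 of 25 lower and 4 higher in 143B.

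The protein-coding genes whose 4 values were nearest to those of S100A2, of 9803 genes and by Euclidean distance on the log2(FPKM + 1) scale, were ITGA10, PKP3 and FDPS. ITGA10, a collagen-binding integrin chain, had a distance of 1.02 and FPKM of 24.54 and 5.45 in JJ012 and 4.80 and 1.3 in 143B. PKP3, a desmosomal plakophilin, was at 1.35, with 10.63 and 7.97 in JJ012 and 7.53 and 3.21 in 143B. FDPS, a farnesyl diphosphate synthase, was at 1.41, with 17.28 and 8.35 in JJ012 and 4.89 and 3.71 in 143B. S100 genes were not among the candidates. ITGA10 was lower past the threshold in both lines (−1.99 in JJ012 and −1.33 in 143B). PKP3 was so only in 143B (−1.02, against −0.37 in JJ012) and FDPS only in JJ012 (−0.97, against −0.32 in 143B). A distance over 4 libraries is a description.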

How the data were processed

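RNA of 4 libraries (JJ012 and 143B, control and melatonin) was compared. For every gene the deposited values were raw whole-number counts and FPKM, and the FPKM were used as deposited. The intervals of FPKM were computed from the counts, the deposited exonic lengths and the library totals. The submitters' processing notes name cutadapt 1.9.1, HISAT2 2.2.1, HTSeq 0.6.1, DESeq2 and hg38, and the strand setting is not given in the sources used here. Whether reads in exonic bases shared by genes on opposite strands were assigned to the right gene is therefore not known.

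The log2 fold change was taken from FPKM + 1, for genes that reached 1 FPKM in either library compared, and a gene was called at an absolute value of 0.58. For single genes the CPM ratio with its exact (Clopper-Pearson) 95% interval was computed, and ratios of ratios with the exact conditional interval. With 1 library per group no test was run. Scripts were tested on simulated counts. The alternatives were a pseudocount of 0.1, no filter, 5 FPKM, a threshold of 1, centring, TPM and CPM, and the running median over exonic length (501 genes) and protein-coding background were added after seeing the data.

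The members and gene lists were chosen with earlier results of these data known. Named genes are the members, other S100 genes at 1 FPKM or more, partners past the threshold plus ANXA1, ANXA2, MYH9 and AGER (1 further gene of the rule is not reported here), the 3 genes nearest to S100A2, and neighbours past the threshold in both lines. Gene overlaps come from GENCODE 29. Python 3.11.15, numpy 2.4.6, pandas 2.3.3, scipy 1.17.1 and matplotlib 3.10.9 were used.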

Additional observations from a re-analysis of the deposited data

How the results depend on the processing

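No paired analysis was possible because each group had 1 library and the labels carry no replicate numbers. In JJ012, 8 or 9 of the 9 tested members were lower in every alternative, all 9 kept their direction, and S100A11 was short of the threshold with TPM (−0.53) and with the length trend removed (−0.54). In 143B the number lower was 3, but 1 with a filter of 5 FPKM, and 4 with TPM, where S100A6 was at −0.61. S100A11 and S100A16 lie near 0 in 143B, and their sign changed with TPM (−0.05 and −0.01), that of S100A11 also with centring (−0.02) and that of S100A16 with the length trend removed (−0.02). Between the controls the number past the threshold was 8, and 7 with centring, TPM or the length trend removed, and 5 at a threshold of 1. With the length trend removed the split there was 3 higher and 4 lower, with S100A13 at −0.10 in place of 0.70, S100A2 at 0.16 and S100A6 at −0.62. S100A2 stayed past the threshold in both lines, from −0.84 to −1.26 in JJ012 and from −2.25 to −2.91 in 143B. TPM moved the median of all tested genes in JJ012 from 0.01 to 0.27, and the share of called genes that were higher from 51.4% to 68.8%. Between the controls that share went from 60.1% to 49.3% with TPM, 48.6% with centring and 47.7% with the length trend removed. The median of the partner genes in JJ012 changed sign with TPM (0.13). The number of them past the threshold there was 9, and 8 with TPM and 6 with the length trend removed. In 143B it was 3, and 4 with TPM and with CPM, of which 3 were higher. With 1 library per group, variation between cultures is unknown, and members under 50 counts are limited by depth.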

Other observations

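S100B, a member known from cartilage and glia, had 31 counts in the JJ012 control and 5 with melatonin, and 0 counts in both 143B libraries. Its JJ012 ratio by CPM was 0.192 (0.0583 to 0.498). It was named after its values were seen, since it stayed below 1 FPKM (0.89 and 0.17).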
